A study of Homo sapiens with 56 samples.

Results

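The genes described here are 9 genes of glutathione and redox metabolism that are known targets of the transcription factor NRF2, namely NQO1, HMOX1, TXNRD1, SRXN1, GCLM, GCLC, SLC7A11, AKR1B10 and GSTP1. They were chosen by name, with no threshold on their values, and are 9 of the 18377 genes that could be read from probe sets annotated to a single gene. Each of the 9 has 1 probe set. The samples are untreated cultures of 28 established lines of ovarian cancer, each a group of its own, whose RNA was read on Human Gene ST arrays (Affymetrix) in duplicate, giving 56 arrays. In DMEM were grown 10 lines (CAOV3, CH1, DOV13, OAW28, OAW42, OVCA420, OVCA432, OVCA433, SKOV3 and TYKNU). In RPMI were 9 lines (A2780, COLO720E, EFO21, HEY, HEYC2, OVCAR2, OVCAR3, OVCAR5 and PEO1), and in DMEM/F12 were 7 lines (FUOV1, JHOS2, JHOS3, JHOS4, OV17R, OV56 and OV7). UWB1.289 and TOV112D were in other mixtures. Serum ranged from 3% to 20%, insulin was added to the medium of 8 lines, and OV17R, OV56 and OV7 had hydrocortisone as well. The comparisons ask whether the genes differed between lines, whether they moved together, and whether they followed the base medium or the epithelial-mesenchymal transition (EMT) score, the axis along which the study ordered its lines.

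NRF2, the product of NFE2L2, is held in the cytoplasm by KEAP1 and marked for destruction there. Oxidants and electrophiles that modify KEAP1 release NRF2, which pairs with a small MAF protein in the nucleus and binds antioxidant response elements (AREs) near its target genes. Its targets include the enzymes that make and use glutathione, the thioredoxin system, and quinone and aldehyde reductases, and mutations that keep NRF2 active are known in several carcinomas.

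Promoter sequence from RefSeq (GRCh38.p14, 250 bases before to 50 after a start) was found for 6 of the 9 genes, and HMOX1, AKR1B10 and SLC7A11 had no entry. Searched on both strands, the ARE core TGACNNNGC was in 13.3% of all 35116 promoters of this length and its variant TGAGNNNGC in 18.3%. The core was in promoters of TXNRD1, GCLM and GSTP1, NQO1 held only the variant, and GCLC and SRXN1 held neither in this window. The windows below, each 5′ to 3′ on the strand of its gene, are shown because they hold these matches, which stand in capitals.
NQO1, minus strand, chr16:69726661-69726689: tcctggagctGCAGCCTCAgcatcctccg
TXNRD1, plus strand, chr12:104215670-104215698: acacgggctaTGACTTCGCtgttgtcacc
TXNRD1, second start, plus strand, chr12:104286920-104286948: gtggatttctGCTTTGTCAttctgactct
GCLM, minus strand, chr1:93909446-93909474: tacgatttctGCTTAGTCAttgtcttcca
GSTP1, plus strand, chr11:67583736-67583764: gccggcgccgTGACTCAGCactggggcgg
Counted from the start site, the first base of the match shown lay at -119 in NQO1, -99 and -102 in TXNRD1, -34 in GCLM and -66 in GSTP1. Not shown are a further core at -8 in the first TXNRD1 promoter and variants at -198 in the second, at -8 in GCLM and at 35 in GSTP1. In GSTP1 the core overlapped the AP-1 motif TGANTCA, which was in 7.71% of all promoters. A match is a description of letters and not a measured binding site.

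Values were log2 intensities between 1.35 and 14.89, with array medians from 5.96 to 6.31, and levels were compared only between lines for the same gene. Duplicate arrays correlated after gene centring with a median r of 0.922, but in HEYC2, OV56 and OVCA420 this was -0.058, 0.059 and 0.096. An array of each of these lines stood apart: HEYC2 replicate 1, OV56 replicate 2 and OVCA420 replicate 1. They correlated with each other by up to 0.911, and the SD of their gene values was 1.57, 1.62 and 1.68, the lowest of the 56 arrays. They matter here because their difference from their duplicates ran from -3.97 to -2.51 log2 units for SLC7A11, from -2.96 to -2.58 for TXNRD1, from -3.10 to -2.65 for GCLM and from -2.76 to -2.13 for GCLC, while the median of all genes was 0.28 to 0.51 higher. NQO1 and SRXN1 differed by -1.86 to -1.16, and AKR1B10 by -1.71 to -0.03. HMOX1 and GSTP1 were between 0.17 lower and 0.94 higher on them. Levels and calls of single lines and the correlations among the 9 genes are therefore given with all arrays and without these 3. In the latter case HEYC2, OV56 and OVCA420 each rest on 1 array that is assumed to vary like the others. Values for base media and the EMT score are mainly from all arrays, and the last section gives what changed under other settings. As background for the cell type, KRT8 and KRT18 were at least 9.01 and 9.18 in every line, and EPCAM ran from 4.57 to 14.53. The leukocyte marker PTPRC stayed between 2.80 and 3.93, but CD68 varied more (SD between lines 1.00, against 0.28 for PTPRC). The summed level of the 4 leukocyte markers ran from 20.4 in OAW28 to 25.4 in TYKNU. The lines were not uniform in epithelial markers. The summed level of the 9 listed markers of ovarian carcinoma epithelium, these keratins and EPCAM among them, ran from 67.3 in COLO720E to 103.0 in PEO1.

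All 9 genes differed between the lines (limma's F test, adjusted p from 1.34e-18 for HMOX1 to 0.0212 for GCLC), as did 65.7% of all genes. For GCLC the pooled SD between duplicates was 0.62 with all arrays and 0.20 without the 3 that stand apart. Its SD between lines was 0.63 and 0.64 in these settings. Tested line by line against the mean of the other lines, at an adjusted p under 0.05 and a difference of at least 1 log2 unit, 43 of 252 tests passed. Of these, 22 were higher (8.73% of the tests, against 3.79% over all genes and lines) and 21 were lower (8.33%, against 3.48%). When those 3 arrays were left out, 30 were higher and 30 lower, and the shares over all genes and lines were 3.93% and 3.19%. The labels do not tell whether duplicate arrays stem from separate cultures, and the p-values may therefore rest on technical spread alone. In bulk RNA, fewer cells that make a transcript and less of it per cell cannot be told apart.

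**Figure D1:**
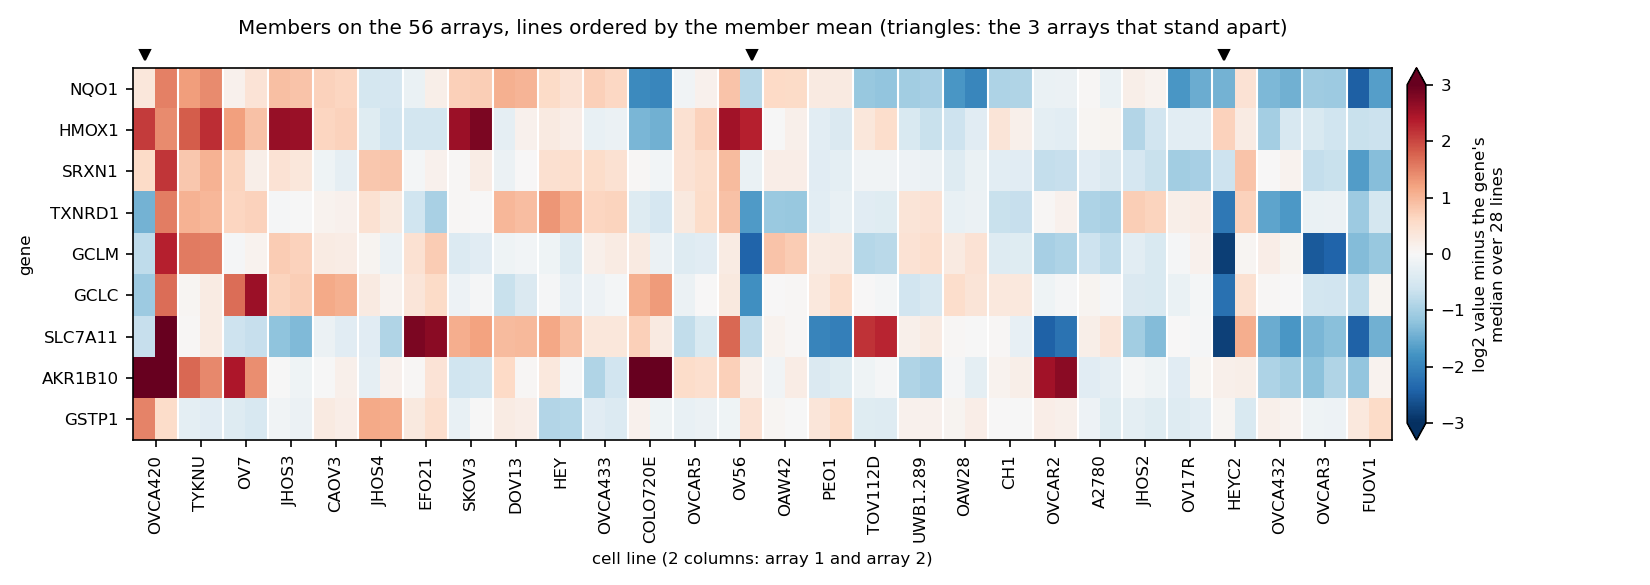
Each column is an array and each row a gene; colour gives the log2 value minus the gene's median over the 28 lines, cut at 3 log2 units on either side, and triangles mark the 3 arrays that stand apart. Lines run from OVCA420, with the highest mean over the 9 genes, to FUOV1, with the lowest, and the marked arrays of OV56 and HEYC2 are low in TXNRD1, GCLM, GCLC and SLC7A11 where their duplicates are not.

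NQO1, on chromosome 16, encodes a quinone reductase and is widely used as a reporter of NRF2 activity. Its level ran from 8.10 in FUOV1 through a median of 10.14 to 11.48 in TYKNU, a range of 3.38 log2 units (10.4-fold). The arrays read 11.39 and 11.56 in TYKNU and 7.70 and 8.50 in FUOV1. TYKNU (1.62 above the mean of the other lines, SE 0.29, adjusted p = 6.14e-05), DOV13, JHOS3 and OVCA420 were higher, and FUOV1 (fell by 1.89 against that mean, SE 0.29, adjusted p = 6.19e-06), COLO720E, OAW28, OV17R and OVCA432 were lower. With the 3 arrays left out OVCA420 was the highest line at 11.66, OV56 was higher as well, and TOV112D was lower.

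HMOX1, on chromosome 22, encodes heme oxygenase, which opens the heme ring and is induced by heme as well as by oxidants. It set 5 lines apart, with SKOV3 at 9.97, JHOS3 at 9.87, OV56 at 9.69, TYKNU at 9.29 and OVCA420 at 9.02. No array of these 5 lines was below 8.68 and no array of the other lines was above 8.50, the value of 1 array of OV7. All 5 were higher than the mean of the other lines, by 2.51 (SE 0.14, adjusted p = 6.70e-15) in SKOV3 and by 1.53 to 2.41 in the others. COLO720E was the lowest, with arrays at 5.90 and 5.83, and it was lower by the test, as were JHOS2 and OVCA432. The median line was at 7.27. Without the 3 arrays the same 5 lines led and OVCA420 stood at 8.68.

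TXNRD1, on chromosome 12, encodes the cytosolic thioredoxin reductase, which passes electrons from NADPH to thioredoxin. It ran from 9.36 in OVCA432 through a median of 11.01 to 12.22 in HEY. HEY (arrays 12.34 and 12.09) was higher by 1.31 (SE 0.46, adjusted p = 0.0386), and OVCA432 (arrays 9.43 and 9.28) fell by 1.66 against the mean of the other lines (SE 0.46, adjusted p = 0.00795). These were its only calls with all arrays. OVCA420 read 9.59 on the array that stands apart and 12.55 on the other, so that without the 3 arrays it was the highest line and 1.498 above the others (SE 0.11, adjusted p = 3.23e-14), and A2780 and OAW42 were then lower. The spread between duplicate arrays was 0.66 log2 units (pooled SD) with all arrays and 0.12 without the 3.

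SRXN1, on chromosome 20, encodes sulfiredoxin, which repairs over-oxidised peroxiredoxins. OVCA420 was the highest line at 10.23 (arrays 9.44 and 11.02) and FUOV1 the lowest at 7.39 (arrays 7.19 and 7.59), with a median of 8.87. OVCA420 was higher by 1.41 (SE 0.25, adjusted p = 6.12e-05), or by 2.15 (SE 0.12) without the array that stands apart, and FUOV1 and OV17R were lower. Without the 3 arrays, OVCA420 stood 33.0% of the whole range above OV56, the line next to it.

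GCLM and GCLC encode the modifier and the catalytic subunit of glutamate-cysteine ligase, the rate-limiting enzyme of glutathione synthesis. GCLM, on chromosome 1, ran from 5.90 in OVCAR3 through a median of 8.36 to 9.91 in TYKNU. TYKNU (arrays 9.91 and 9.90) was higher by 1.76 (SE 0.46, adjusted p = 0.00539). OVCAR3 (arrays 5.85 and 5.95) was lower than every other line, with a difference of -2.39 from the mean of the others (SE 0.46, adjusted p = 0.000199). HEYC2 was lower with all arrays (difference -1.27, adjusted p = 0.0487) and not without the array that stands apart (difference 0.05, adjusted p = 0.757). OVCA420, at 7.61 and 10.70, was the highest line without that array and was then higher by 2.42 (SE 0.11).

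GCLC, on chromosome 6, gave a different order. OV7 led at 10.56 (arrays 10.12 and 11.01), higher by 2.09 (SE 0.43, adjusted p = 0.000374), and stood above COLO720E by 31.0% of the range. The median line was at 8.45 and the lowest, HEYC2, at 7.55, from arrays at 6.20 and 8.90. No other line was called for GCLC with all arrays, and without the 3 arrays OVCA420, at 10.12, was higher too. OVCAR3, the lowest line for GCLM, read 7.90 and 7.88 for GCLC and was not called. The subunits correlated by r = 0.45 over the lines (rho = 0.57, and r = 0.50 without the 3 arrays).

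SLC7A11, on chromosome 4, encodes the light chain of the cystine-glutamate exchanger xCT, which imports the cystine used for glutathione, and is a target of ATF4 as well as of NRF2. It ran from 6.70 in OVCAR2 through a median of 9.03 to 11.80 in EFO21, a range of 5.10 log2 units (34.3-fold). EFO21 (arrays 11.86 and 11.74) was higher by 3.00 (SE 0.57, adjusted p = 0.000179) and TOV112D (arrays 11.19 and 11.33) by 2.43 (SE 0.57, adjusted p = 0.00196). OVCAR2, PEO1 and FUOV1 were lower, and no array of these 3 lines was above 7.59. OVCA420, at 8.35 and 12.32, was the highest line without the 3 arrays, when OV56 (10.75), HEYC2 (10.13), SKOV3 and HEY were also higher and JHOS2, JHOS3, OVCAR3 and OVCA432 also lower.

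AKR1B10, on chromosome 7, encodes an aldo-keto reductase that reduces reactive aldehydes and retinal. In most lines it was low on its own scale, with a median of 4.13, and 23 of the 28 lines were at or below 4.65. The other 5 lines were OVCA420 at 9.74 (arrays 8.88 and 10.59), COLO720E at 7.93 (7.84 and 8.02), OVCAR2 at 6.74 (6.65 and 6.84), OV7 at 6.04 (6.56 and 5.52) and TYKNU at 5.71 (5.85 and 5.57). All 5 were higher by the test, OVCA420 by 5.39 (SE 0.26, adjusted p = 7.61e-17) and COLO720E by 3.52 (SE 0.26, adjusted p = 2.09e-12), and no array of theirs overlapped those of the other lines, which reached 4.85. OVCAR3, OVCA432, UWB1.289, OVCA433 and SKOV3 passed the test in the lower direction, at 3.05 to 3.56. These values lie far below the median of every array, and whether they are above background was not tested.

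GSTP1, on chromosome 11, encodes a glutathione transferase that couples glutathione to electrophiles and is linked to resistance to platinum drugs. It had the narrowest range of the 9 in log2 units, 1.99, from 11.19 in HEY through a median of 12.06 to 13.18 in JHOS4. JHOS4 (arrays 13.19 and 13.17) was higher by 1.15 (SE 0.17, adjusted p = 2.72e-06). OVCA420 was higher by 1.03 (SE 0.17, adjusted p = 1.55e-05) with arrays at 13.54 and 12.59, and without the first, which stands apart, its difference was 0.58 (SE 0.08), under the minimum of 1 log2 unit. HEY (arrays 11.17 and 11.21) lay below all other arrays. Its difference of -0.92 (SE 0.17, adjusted p = 8.29e-05) was also under the minimum of 1 log2 unit, and it was not called. The line SD of GSTP1 was larger than that of 50.5% of all genes, against 92.7% for NQO1, 94.6% for HMOX1, 96.1% for SLC7A11 and 98.1% for AKR1B10.

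**Figure D2:**
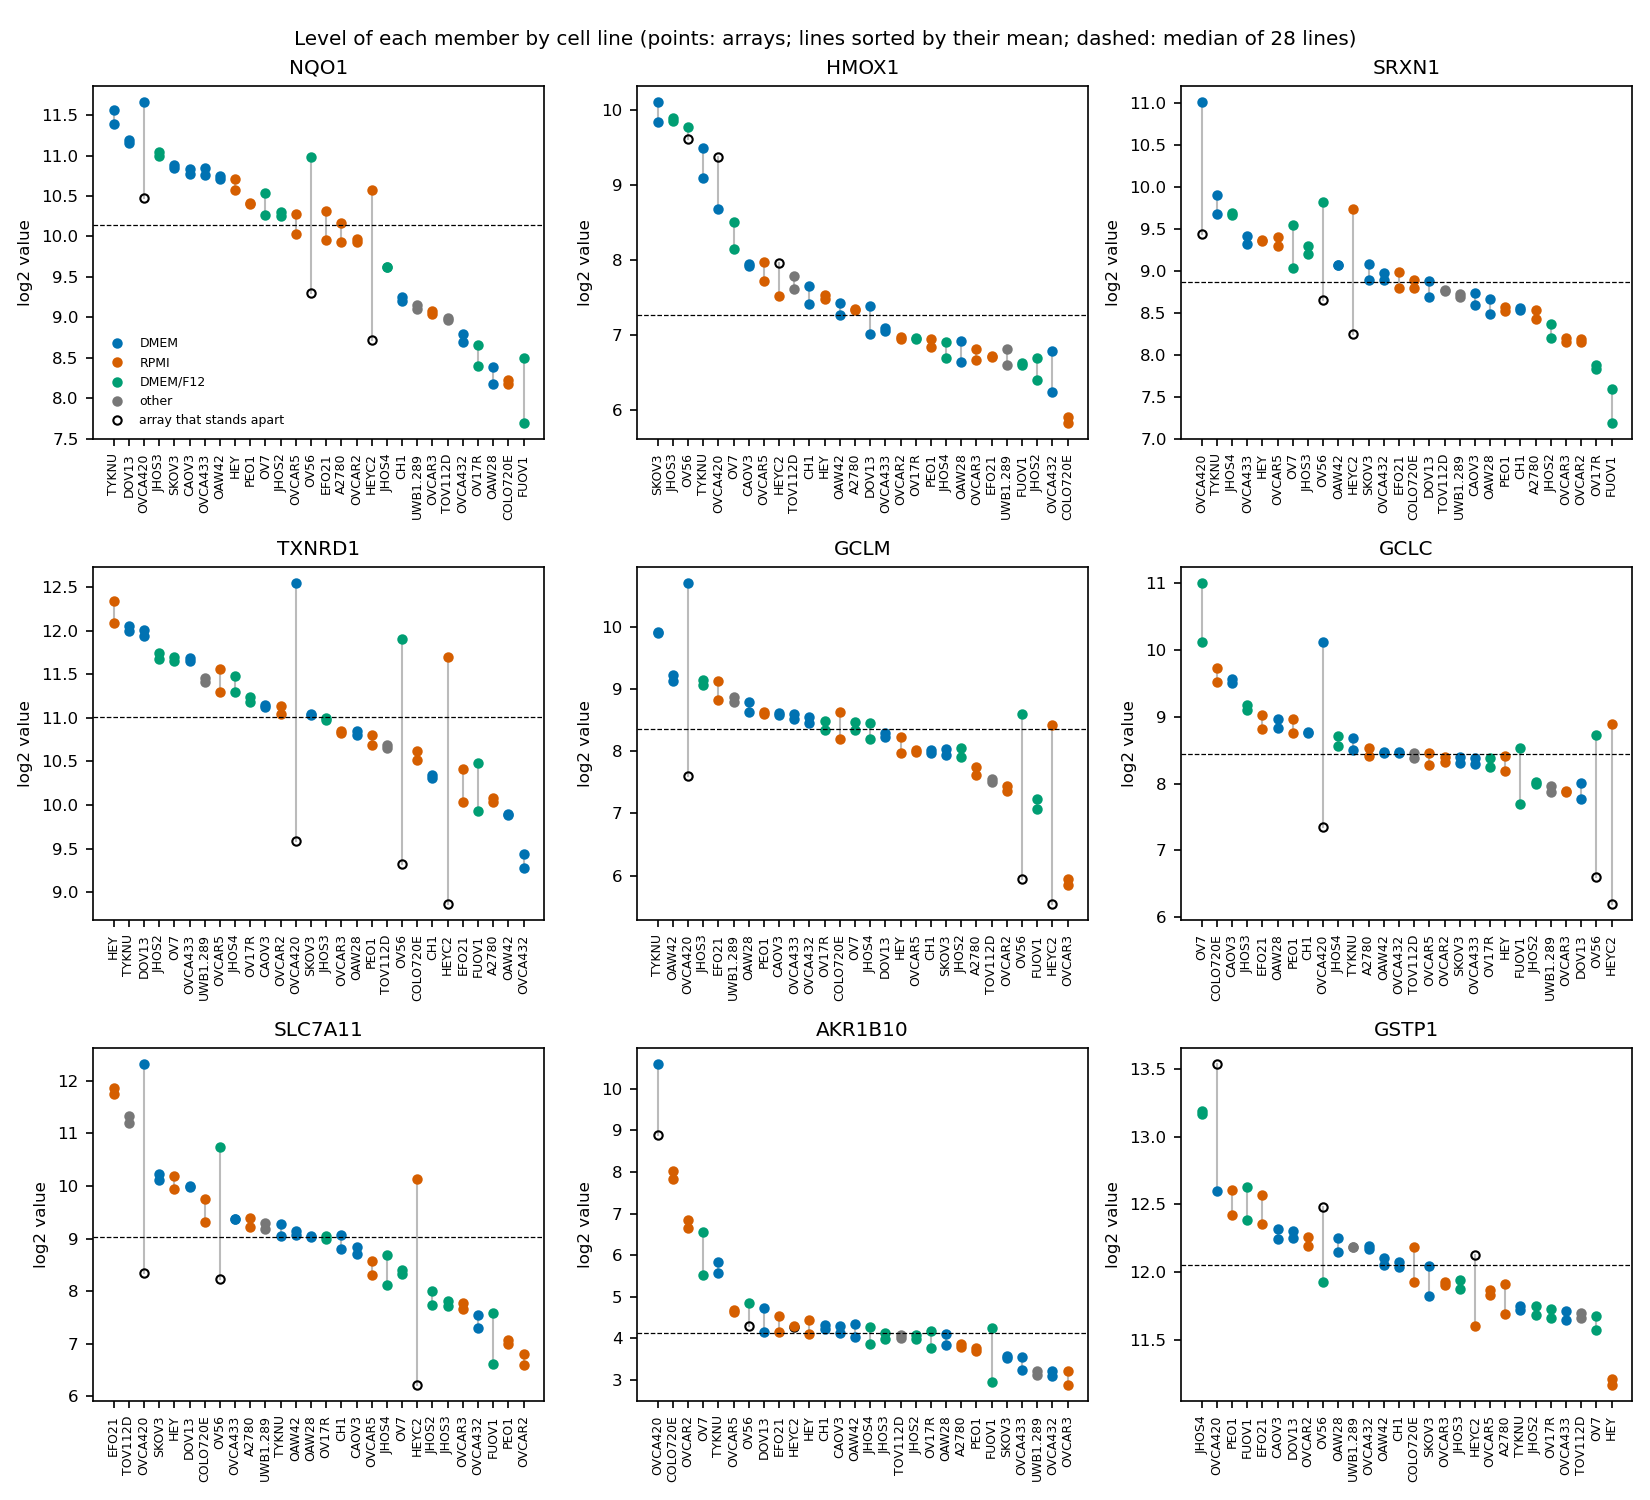
Log2 value of each gene on the 2 arrays of each line (points joined by a grey line), with lines sorted by their mean, colour for the base medium, open black circles for the 3 arrays that stand apart and a dashed line at the median of 28 lines. HMOX1 has 5 lines from 9.02 to 9.97 and AKR1B10 has 5 lines from 5.71 to 9.74 above the rest, and OV7 stands alone at the top of GCLC at 10.56.

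Along these orders, the arrays of neighbouring lines overlapped in 15 of 27 neighbouring pairs for NQO1 and TXNRD1 and in 24 of 27 for GSTP1. HMOX1 overlapped in 19 pairs, SRXN1, AKR1B10 and SLC7A11 in 21, and GCLM and GCLC in 23. Neighbours whose arrays overlapped did not differ beyond the spread of the duplicates. Without the 3 arrays fewer overlapped, from 11 of 27 pairs for NQO1 and TXNRD1 to 21 of 27 for GSTP1.

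By the mean of the 9 genes, each scaled to its own mean and SD over the lines, OVCA420 came first (1.49 SD units), followed by TYKNU (0.96), OV7 (0.65) and JHOS3 (0.48). It was above the median of all 9 genes and had 5 of them called higher (NQO1, HMOX1, SRXN1, AKR1B10 and GSTP1), where 4.17% of all genes were. On its other array alone it had 8 called higher, all but GSTP1, where 5.45% of all genes were, and the mean was 2.20. TYKNU was above the median of 8 genes and had NQO1, HMOX1, GCLM and AKR1B10 called higher (3.63% of all genes). OV56 moved from rank 14 to rank 3 and HEYC2 from rank 25 to rank 8 when the 3 arrays were left out.

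The lowest means were those of FUOV1 (-1.04), OVCAR3 (-1.02) and OVCA432 (-0.67). OVCAR3 was above the median of none of the 9 genes, and had GCLM and AKR1B10 called lower, where 3.15% of all genes were. FUOV1 was above the median only for GSTP1, where it was at 12.51, and had NQO1, SRXN1 and SLC7A11 called lower (5.88% of all genes). OVCA432 had NQO1, HMOX1, TXNRD1 and AKR1B10 called lower (3.03% of all genes) but was above the median for GCLM, GCLC, SRXN1 and GSTP1. The calls without the 3 arrays were 5 lower in FUOV1 (7.14% of all genes), 5 in OVCA432 (3.66%) and 3 in OVCAR3 (4.22%).

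Some lines went both ways. COLO720E had the lowest HMOX1 and the second lowest NQO1, both called, while its AKR1B10 and GCLC were second from the top. OVCAR2 had AKR1B10 called higher by 2.29 and SLC7A11 called lower, with a difference of -2.29. JHOS3 had HMOX1 and NQO1 called higher, while its SLC7A11 was called lower without the 3 arrays (difference -1.39, SE 0.14, adjusted p = 3.04e-10).

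Markers of other cell types were also high in some of the leading lines. TYKNU had the highest summed level of the 3 endothelial markers (24.5, against a median of 15.7 and a lowest of 14.2), from PECAM1 at 9.79 and CDH5 at 9.28 with VWF at 5.39, and the highest sum of the 4 leukocyte markers (25.4, median 22.6), from CD68 at 10.73 with PTPRC at 3.63. OV7 had the highest sum of the 6 fibroblast markers (47.2, median 32.0), with DCN at 9.03 and LUM at 10.02. OVCA420 had sums of 17.2 for the endothelial, 35.9 for the fibroblast and 22.8 for the leukocyte markers, each above the median over lines. Among single markers there, VWF was 5.42, PTPRC 3.11 and DCN 4.33. The correlation of single markers with the mean of the 9 genes over the 28 lines had a median of 0.18 for the endothelial, 0.21 for the leukocyte and -0.04 for the fibroblast list. OV7 was second for the leukocyte sum (25.2). Their part in the levels of the 9 genes was not tested.

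Taken pair by pair, the 9 genes moved together to a limited extent. Over the 28 lines, the 36 pairs had a median Pearson's r of 0.194 (Spearman's rho 0.206), from -0.26 to 0.61, against a median of 0.008 over all pairs of genes. Above 0 were 32 pairs and above 0.5 were 4 (11.1%, against 7.76% of all gene pairs). With the 3 arrays left out the median was 0.337 and 9 pairs (25.0%) were above 0.5, against 1.16% of all gene pairs. In that setting OVCA420, on 1 array, had a mean of the 9 genes of 2.20, with TYKNU next at 0.79. Some of these pairs depended on it, as given below. The points share their lines, base media and arrays, and the correlations are descriptions.

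The pairs above 0.5 were NQO1 with HMOX1 (r = 0.61, rho = 0.65), NQO1 with SRXN1 (r = 0.60, rho = 0.56), HMOX1 with SRXN1 (r = 0.52, rho = 0.51) and GCLM with SRXN1 (r = 0.51, rho = 0.41). With the pair of lines farthest from the median of the first gene left out, these were 0.55, 0.55, 0.57 and 0.39. With values centred on the base medium they were 0.63, 0.57, 0.52 and 0.47. SRXN1 followed the mean of the other 8 genes most closely (r = 0.73, and 0.83 without the 3 arrays), then NQO1 (0.57 and 0.61) and GCLM (0.56 and 0.70). GSTP1 did not follow it (r = 0.01 and -0.05), and its lowest pair was with TXNRD1 (r = -0.26). TXNRD1 and GCLC, which were lowered on the 3 arrays, had r = 0.26 and 0.28 with the other 8 genes, and 0.48 and 0.51 without those arrays. For SRXN1 and AKR1B10 without the 3 arrays, OVCA420 lay apart from all other lines, and their r of 0.52 became 0.18 when it was left out. With that line left out, SRXN1 went from 0.55 to 0.44 with TXNRD1 and from 0.56 to 0.42 with SLC7A11. AKR1B10 went from 0.49 to 0.17 with GCLM. Still above 0.5 were SRXN1 with NQO1 (0.61), GCLM (0.55) and HMOX1 (0.505), and AKR1B10 with GCLC (0.53).

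**Figure D3:**
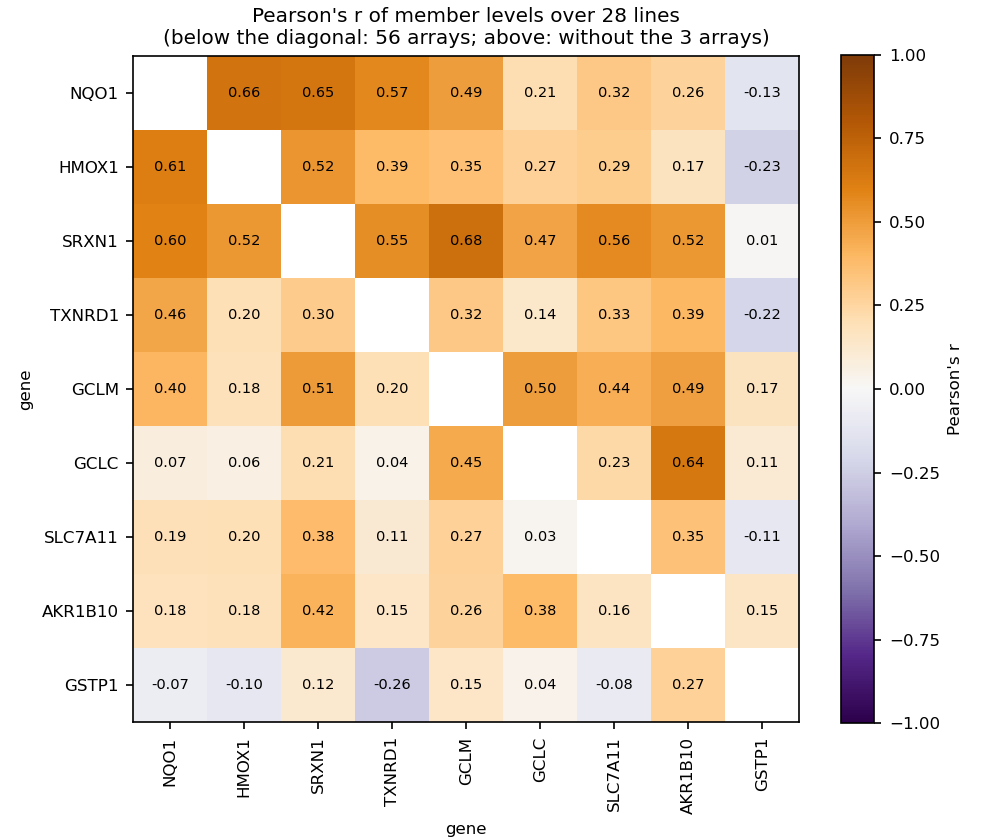
Pearson's r between each pair of the 9 genes over 28 lines, from all 56 arrays below the diagonal and without the 3 arrays that stand apart above it. NQO1, HMOX1 and SRXN1 form the block of higher values (0.52 to 0.61 below the diagonal), and the row of GSTP1 stays between -0.26 and 0.27.

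Of the regulators, NFE2L2 itself had r = 0.003 with the mean of the 9 genes (0.20 without the 3 arrays) and KEAP1, its inhibitor, r = 0.18 (0.01). NFE2L2 ran from 7.50 in OVCA420 to 10.69 in EFO21, but OVCA420 read 5.71 on the array that stands apart and 9.30 on the other, and FUOV1, at 8.29, was the lowest line without the 3 arrays. The pooled SD of NFE2L2 between duplicates, 0.73, was as large as its SD between lines, 0.72. Among single genes, NFE2L2 had its highest r with SLC7A11 (0.36, and 0.53 without the 3 arrays). SQSTM1, whose protein binds KEAP1 and draws it into autophagy and which is itself an NRF2 target, had r = 0.46 with the mean under both settings, 0.71 with NQO1 and 0.52 with HMOX1. MAFG and MAFF, small MAF proteins, had r = 0.49 (0.55) and 0.34 (0.15). BACH1, a repressor that competes for AREs and is known for holding down HMOX1, had r = -0.34 (-0.03), and r = -0.42 with HMOX1 (-0.21). Of the 10 regulators measured, 9 differed between lines, where 65.7% of all genes did. None had r above 0.5 with all arrays, where 0.708% of the genes outside the 9 did.

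Other NRF2 target genes gave intermediate values. Of 17 detoxification genes, 4 had r above 0.5 with the mean of the 9 (23.5%, against 0.708% of the 18368 genes outside the 9), and 7 without the 3 arrays (41.2%, against 1.82%). They were ABCC3, a conjugate export pump (r = 0.67), CBR1, a carbonyl reductase (0.56), and the aldo-keto reductases AKR1C2 (0.51) and AKR1C3 (0.51), which have near-identical family members that probes may not separate. AKR1C2 and ABCC3 were highest in OVCA420, at 10.28 over a median of 5.67 and at 9.31 over a median of 6.37, and AKR1C3 was highest there too. The list had 61 single-line calls higher and 52 lower in 476 tests (12.8% and 10.9%, against 3.79% and 3.48% over all genes and lines).

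Of 10 redox genes, 1 had r above 0.5 with all arrays (10.0%, against 0.708% of the genes outside the 9) and 4 without the 3 (40.0%, against 1.82%). GPX2, a glutathione peroxidase, had r = 0.53 and was highest in OVCA420 at 10.03 over a median of 5.03. TXN, thioredoxin, had r = 0.47, GSR, glutathione reductase, 0.46 and OSGIN1 0.46, rising to 0.56, 0.59 and 0.72 without the 3 arrays. All 5 genes of NADPH supply had r above 0, where 10322 of the 18368 genes outside the 9 did. None was above 0.5, where 0.708% of those genes were. TALDO1 was at 0.41, ME1 at 0.28, TKT at 0.25 and PGD at 0.19.

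As a list, the genes of glutathione use and turnover had a median r of 0.14 (0.05 without the 3 arrays). This was below the redox (0.36) and detoxification (0.39) lists and above all genes outside the 9 (0.03). Of 26 measured, 18 had r above 0, where 10322 of the 18368 genes outside the 9 did. None had r above 0.5, where 0.708% of those genes did. GLRX2 (r = 0.49) and GLRX (0.43), the glutaredoxins, were the highest, and GSTM2, a mu-class glutathione transferase, the lowest (-0.42), with the secreted peroxidase GPX3 at -0.36. GSTA1, an alpha-class transferase, had r = 0.38 (0.55 without the 3 arrays), and SLC3A2, the heavy chain that pairs with SLC7A11, had r = 0.36. The 8 ATF4 target genes had a median of -0.13, with TRIB3 at 0.48, PSAT1 at -0.39, PHGDH at -0.34 and ASNS at -0.19.

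Of all genes outside the 9, those most like the mean of the 9 over the 28 lines were RNF19B (r = 0.70), CLIC1 (0.68), ABCC3, OR6C70, ABHD2 (0.66), SMOX, SELENOS, GNA11, UNC45A and BAAT (0.64). On the other 53 arrays BAAT, ABHD2 and CLIC1 had ranks 1, 2 and 5, while RNF19B was at rank 135 and GNA11, SMOX, UNC45A and OR6C70 at ranks 117, 251, 343 and 599. The genes least like it were MYH10 (r = -0.68), LDB1 (-0.66) and BEX3 (-0.66). Most like single genes were CLIC1 and SP100 for NQO1 (r = 0.85 and 0.77), MAP3K6 and the probe set annotated to MIR1-1 for HMOX1 (0.75 and 0.70), CAPN2 and ITPRID2 for TXNRD1 (0.81 and 0.73), and CHMP1A and UNC45A for SRXN1 (0.75 and 0.73). For GCLM they were SNX7 and STT3A (both 0.73), for GCLC NPTX2 and TRPA1 (0.72 and 0.70), and for SLC7A11 EXTL3 and TMEM218 (0.60 and 0.55). LGALS4 and SULT6B1 were most like AKR1B10 (both 0.80, but 0.84 and 0.30 without the 3 arrays), and PITPNM1 and THSD7B most like GSTP1 (0.75 and 0.74).

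No gene of the 9 was called between base media, where 0% of all genes were called in DMEM against RPMI, 0% in DMEM/F12 against RPMI and 0% in DMEM/F12 against DMEM (limma over 26 lines). At an unadjusted p under 0.05 there were 516, 398 and 312 genes, and of the 9 only GCLM in the first comparison. GCLM was 8.68 ± 0.59 (SD, n = 10 lines) in DMEM and 7.79 ± 0.94 (n = 9) in RPMI. The difference was 0.90 (95% interval 0.21 to 1.58), and its adjusted p in limma was 1.00. The ranges overlapped, from 7.99 to 9.91 and from 5.90 to 8.98. Without the 3 arrays GCLM was 8.84 ± 0.87 in DMEM and 7.94 ± 0.90 in RPMI. HMOX1 was 0.80 higher in DMEM than in RPMI (95% interval -0.20 to 1.80), and its 5 leading lines were all in DMEM or DMEM/F12, where the highest line in RPMI was OVCAR5 at 7.84. For AKR1B10 the same difference was -0.10 (95% interval -1.50 to 1.31), and for GSTP1 0.16 (-0.25 to 0.58). Serum and insulin also differed between lines of a medium, and medium and line cannot be told apart within a line.

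**Figure D4:**
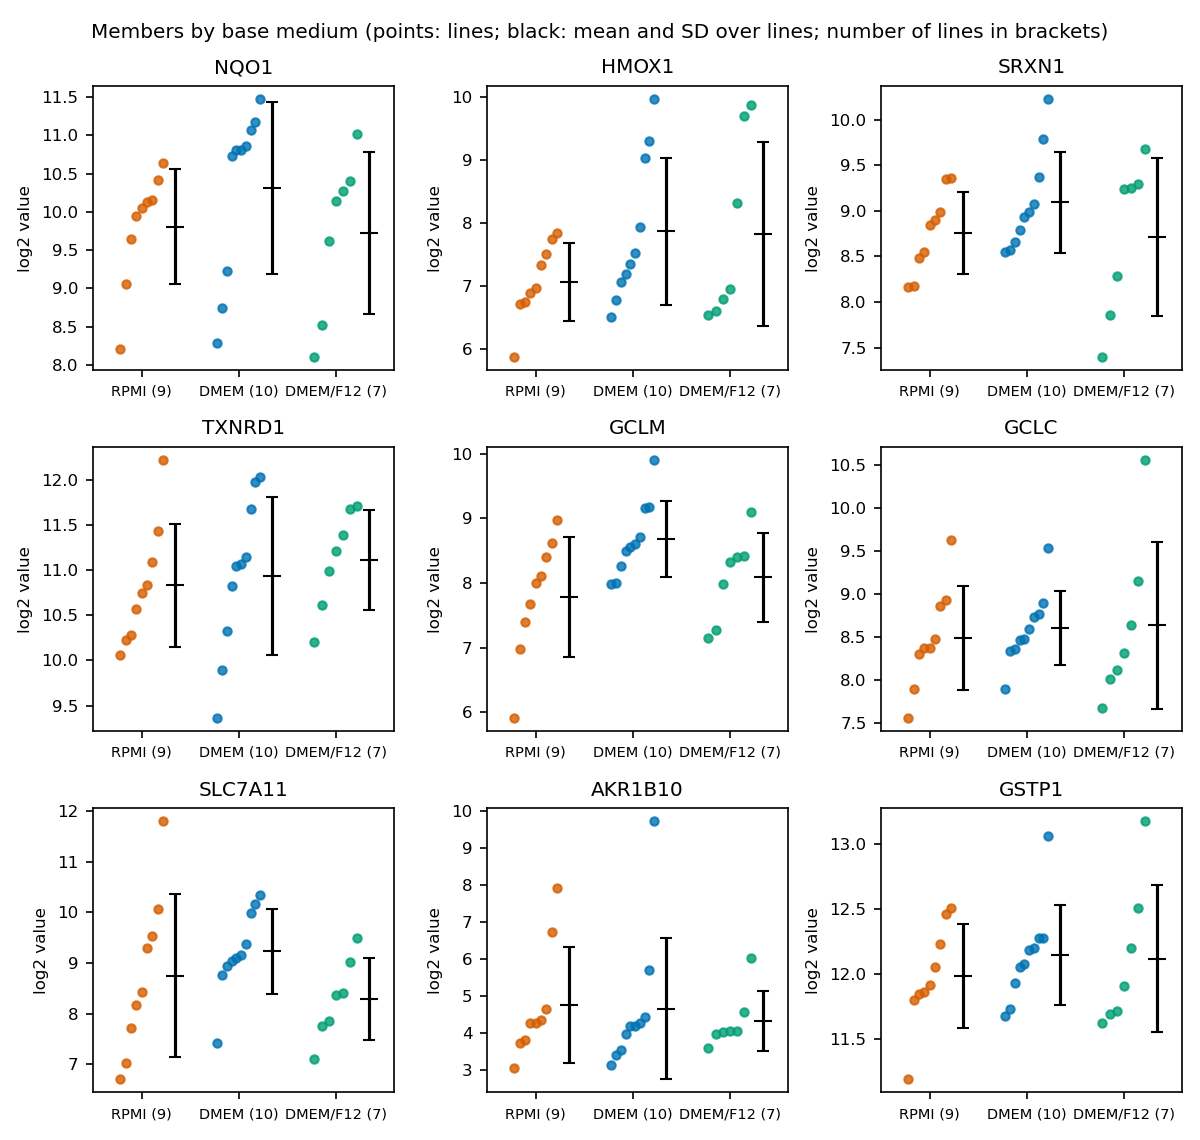
Log2 value of each gene in the lines of each base medium (points, mean of 2 arrays), with the mean and SD over lines in black, for 9 lines in RPMI, 10 in DMEM and 7 in DMEM/F12. The ranges of the 3 media overlap for all 9 genes, and the lines above 9 for HMOX1 are in DMEM and DMEM/F12.

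Along the EMT score none of the 9 genes was called, where 1.1% of all genes were (202 genes, limma over 28 lines). The score was rebuilt from 184 epithelial and 200 mesenchymal signature genes that the study chose on cell lines of this kind, and none of the 9 is among them. Duplicates had scores of opposite sign in FUOV1 (0.38 and -0.33), OV7 (0.52 and -0.12) and OAW42 (0.18 and -0.15). The same held for HEYC2 (-0.21 and 0.70) and OV56 (0.12 and -0.30), which each have an array that stands apart. The mean score of these lines is therefore an uncertain position. At an unadjusted p under 0.05 there were 1796 genes (9.77%), and of the 9 only GSTP1. The slope of GSTP1 was -0.49 in log2 units for each unit of score (SE 0.16, 95% interval -0.81 to -0.17, adjusted p = 0.158), with r = -0.53 and rho = -0.49, and r = -0.48 when PEO1 and TOV112D, which lay farthest from the middle of the scores, were left out. With the single arrays, a replicate block and the line as a random block its adjusted p was 0.0280. JHOS4 and OVCA420 had the highest GSTP1 and negative scores, and HEY had the lowest and a positive score. SLC7A11 had the largest positive slope, 0.71 (95% interval -0.29 to 1.71), and its r of 0.26 became 0.06 without PEO1 and TOV112D. It was followed by AKR1B10 at 0.37 and HMOX1 at 0.35, and the slopes of NQO1, GCLM, TXNRD1, SRXN1 and GCLC were between -0.39 and -0.01, all with intervals that include 0. Of the other lists, 4 of the 9 markers of ovarian carcinoma epithelium were called, all with a negative slope. Some of these 9 markers, such as EPCAM, are among the study's signature genes. TRIM16, an NRF2 target of the redox list, was the only other call (slope -1.45, SE 0.28, adjusted p = 0.00456).

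**Figure D5:**
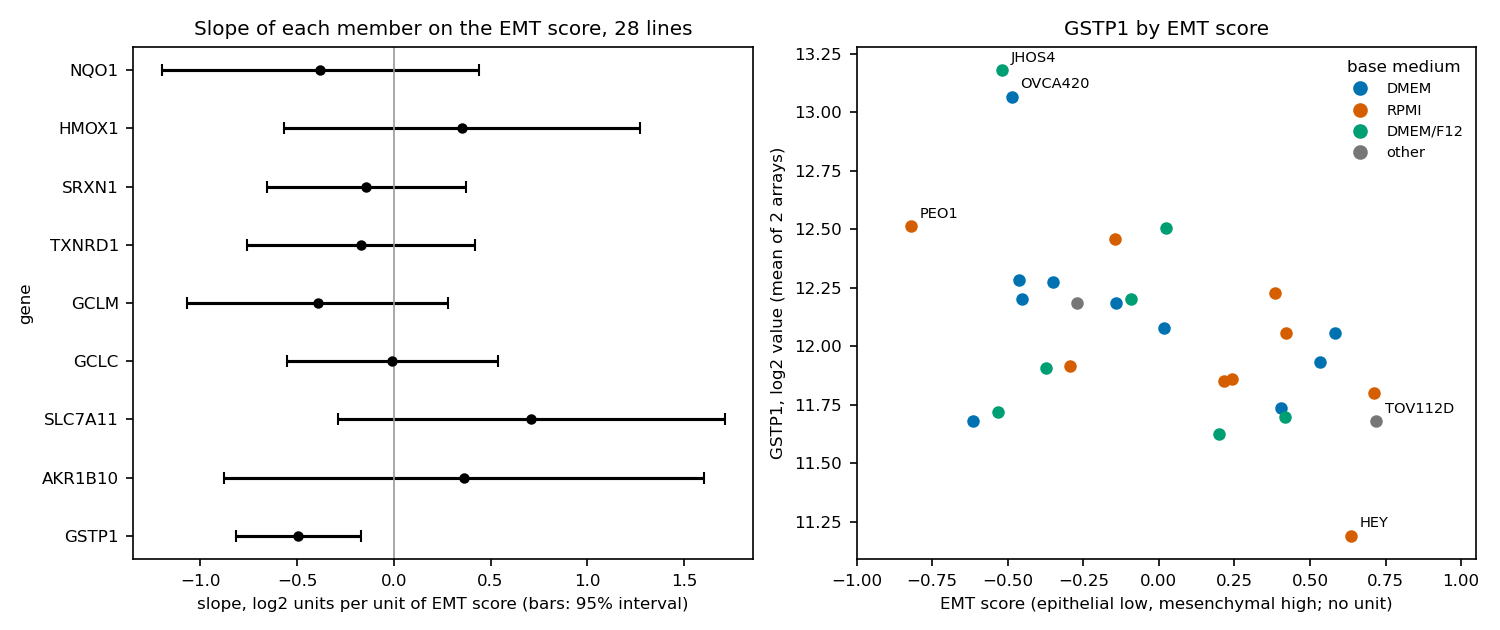
Left, slope of each gene on the EMT score in log2 units per unit of score with its 95% interval over 28 lines; right, GSTP1 (log2, mean of 2 arrays) against the EMT score of each line, coloured by base medium. The interval of GSTP1, -0.81 to -0.17, lies below 0 before adjustment over all genes, and the intervals of the other 8 genes include 0.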

How the data were processed

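RNA of 28 lines had been hybridised to 56 arrays. The values that the authors deposited are log2 intensities, made with RMA in affy 1.42.3 as the submitters' processing notes name them. Which arrays were normalized together, any filter and any batches are not given in the sources used here. RMA includes quantile normalization, which can hide or spread shifts of whole arrays, and the 3 arrays with a narrower spread of values were left out as an alternative. A line is labelled JHOS4 on 1 array and JHSO4 on the other, and both were taken as JHOS4.

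Names came from the platform annotation, and symbols were updated through gene IDs. A single gene was annotated to 19310 of 28869 probe sets, which gave 18377 genes, by the highest-mean probe set for 685 genes with several. Duplicate arrays were averaged. Each line was compared with the mean of the others, and lines among each other by the F test, in limma 3.58.1 (trend and robust, R 4.3.3) on 56 arrays. Media and the EMT slope were fitted on line means. P-values were Benjamini-Hochberg adjusted over all genes (and lines), with a threshold of 0.05 and, for single lines, at least 1 log2 unit. The fits were tested on simulated data. For the EMT score, rebuilt after the study's, the epithelial and mesenchymal signature genes of an array were compared by a signed Kolmogorov-Smirnov statistic on median-centred values. Tables were handled in Python 3.11.15 with pandas 2.3.3 and numpy 2.4.6, and plots drawn with matplotlib 3.10.9.

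The 9 genes, the gene lists and the naming rule were chosen with earlier results of these data known. The rule named the 9 genes, up to 4 genes of each list by the size of r with their mean, NFE2L2 and KEAP1, the 10 genes most and 3 least like that mean, and 2 genes most like each member. KRT8, KRT18, EPCAM, LUM, TRIM16, GPX3 and SLC3A2 fall outside it and were chosen after their values were seen. MAFK, FTH1, PIR, AKR1B1 and GGT1 were not analysed here. The number of arrays limits the precision.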

Additional observations from a re-analysis of the deposited data

Results flagged for a closer look

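Within base media, 27 groups of lines (9 genes in 3 media) were searched for a line far from the others by Dixon's criterion, which chance meets in about 1 of 20 groups, and 3 were found. AKR1B10 in OVCA420 was 9.74 among 10 lines in DMEM, where the gap to the next line was 0.611 of the range. GSTP1 in OVCA420 was 13.07 among the same lines, with a gap of 0.567 of the range, and its arrays read 13.54, on the array that stands apart, and 12.59. AKR1B10 in OV7 was 6.04 among 7 lines in DMEM/F12, with a gap of 0.600 of the range and arrays at 6.56 and 5.52.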

How the results depend on the processing

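Single-line calls numbered 43 with all arrays, 42 with a replicate block, 60 without the 3 arrays, 49 after a further quantile normalization, and 71 with no minimum difference, of which 41 were lower. Leaving out any 1 array gave 40 to 60 calls, with the largest gains for the arrays of HEYC2, OV56 and OVCA420. Without OV7 replicate 2, and with HEY and HEYC2 merged, 8 genes in place of 9 differed between lines. The replicate numbers were not taken to pair the arrays. Differences between duplicates correlated between lines with a median r of -0.0002 (from -0.89 to 0.87), and 91 of 378 pairs of lines were above 0.1. Along the EMT score, 1 gene (GSTP1) was called with single arrays, a replicate block and the line as a random block, and none under the other settings. The median correlation of 0.194 became 0.337 without the 3 arrays and 0.259 to 0.297 with 1 array of each line. The cause of these changes was not tested. Of 342 media differences and slopes of single genes under alternatives, 326 kept their direction and side of the threshold and 15 changed sign, none of which was called under any setting. With 1 array of each line (without replicate 1 or without replicate 2), DMEM/F12 minus RPMI was -0.224 to 0.0692 for NQO1, -0.241 to 0.154 for SRXN1, -0.0105 to 0.579 for TXNRD1, -0.0263 to 0.640 for GCLM and -0.0541 to 0.354 for GCLC. DMEM/F12 minus DMEM was -0.131 to 0.0547 for HMOX1, -0.109 to 0.470 for TXNRD1, -0.155 to 0.214 for GCLC and -0.120 to 0.0610 for GSTP1, and the EMT slope of GCLC was -0.0803 to 0.228. The other changes of sign were DMEM/F12 minus DMEM for HMOX1 without the 3 arrays (0.00824) and for GCLC after quantile normalization (-0.00253), DMEM/F12 minus RPMI for SRXN1 with HEY and HEYC2 merged (0.00879), and the slope of GCLC after quantile normalization (0.000625) and with the lines merged (0.0171).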
